A study of Mus musculus with 3 samples.

Results

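Sprr1a, Uck2, Tnfrsf12a, Gdf15, Clu, Enah and Rtn4 are 7 of the 32285 genes in the deposited matrices. They were chosen by their concentration, known or seen in these data, in spots rich in Ankrd1, a cardiac ankyrin repeat gene induced in strained heart muscle. Levels inside and outside those spots and the share of each gene's UMIs in them are therefore given as a description and support nothing. All 7 had at least 1 UMI in each section.

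The study asked how MUSKARDIA, a traditional Chinese medicine pill abbreviated SBP, changed the mouse heart after ischemia and reperfusion. The hearts came from C57BL/6 mice. Sham animals received vehicle by gavage for 7 days and had the needle passed without ligation, I/R animals received vehicle for 7 days and then 30 min of ligation of the left anterior descending artery with 24 h of reperfusion, and SBP animals received SBP for 7 days before the same ligation and reperfusion. Cryosections of 10 µm were placed on Visium slides, on which each barcoded spot collects the transcripts of a small region that can hold several cells of different types. There was 1 section per condition, so no difference between conditions has a replicate check and no p-value is given. The intervals are at the 95% level and cover counting error only. In a spot, fewer cells of a type and less RNA per cell cannot be told apart.

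The genes belong to the response of heart muscle to injury and load. Around an infarct, surviving cardiomyocytes re-express fetal and stress genes such as Nppa, Nppb and Ankrd1, rebuild their cytoskeleton and secrete stress signals, while macrophages and neutrophils enter the dead tissue beside them. The 7 genes cover several of these functions. Sprr1a encodes a small proline-rich protein of the cornified envelope family that cardiomyocytes and injured neurons also make under stress. Gdf15 encodes a secreted stress cytokine, Tnfrsf12a the receptor Fn14 of the cytokine TWEAK, and Clu the secreted chaperone clusterin. Enah encodes the actin regulator Mena, Rtn4 the endoplasmic reticulum shaping protein reticulon 4 (Nogo), and Uck2 a kinase that salvages uridine and cytidine.

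With a minimum of 200 detected genes per spot, 2234 spots of the sham section, 2082 of I/R and 1960 of SBP were kept. They held 21631280 to 30238530 UMIs, with medians of 10645 to 14672 per spot and a mitochondrial share of 44.3% to 48.6%. Spot barcodes were shared between sections, 1093 of them by all 3, since the barcodes name positions on a slide and not cells. Cardiomyocyte markers were all detected, 14 of 14 in each section, with summed levels per 1000000 UMIs (CPM) of 66818 in the sham, 50014 in the I/R and 61432 in the SBP section. Epicardial markers summed to 2.55 to 4.76 CPM. Summed atrial markers, a list that includes Nppa, were lowest in sham (462 CPM) and reached 1150 CPM with I/R and 1385 CPM with SBP. Nppa, itself a stress gene, gave nearly all of this sum, and Sln and Bmp10 had no UMI in I/R or SBP. The part of these markers in the results was not tested.

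A spot was called Ankrd1-high when its Ankrd1 UMIs exceeded the sham 95th percentile, 27.0 per 10000 UMIs. By this threshold 112 of 2234 sham spots (5.01%), 479 of 2082 I/R spots (23.0%, 21.2 to 24.9%) and 326 of 1960 SBP spots (16.6%, 15.0 to 18.4%) were Ankrd1-high. They held 7.35%, 27.0% and 18.1% of all UMIs. Spot positions were not used here, so whether these spots formed a border could not be checked.

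Sprr1a lies on chromosome 3 at 92483952-92485895 of GRCm38 on the minus strand and overlaps no other annotated gene. Among the 7 genes it had the largest log2 ratios both of I/R over sham and of SBP over I/R. Its level was 6.33 CPM (5.38 to 7.39, 159 UMIs) in sham, 48.1 CPM (45.6 to 50.6, 1453 UMIs) in I/R and 8.88 CPM (7.66 to 10.2, 192 UMIs) in SBP. The I/R section thus stood far above both others, whose intervals did not overlap each other. I/R was 7.59-fold above sham, a log2 ratio of 2.92 (2.69 to 3.17) that ranked 45 among the 12231 genes that reached 50 UMIs over both sections. SBP was 5.41-fold below I/R, with a log2 ratio of -2.44 (-2.66 to -2.22). SBP over sham gave 0.49 (0.18 to 0.80), a difference that depended on few sham spots. In sham, 62.3% of the Sprr1a UMIs lay in the 1% of spots with the most, 23 spots, whereas the same share was 21.3% for I/R and 30.2% for SBP. Without the 1% of spots with the most Sprr1a in each section, the log2 ratio of SBP over sham was 1.37 and that of I/R over sham was 3.98. This cut took 23 of 78 sham, 21 of 554 I/R and 20 of 136 SBP spots with a Sprr1a UMI. It thus weighed most on sham, and the larger ratios depend on that.

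The promoter of Sprr1a is shown because Sprr1a was the only member with a match to the AP-1 motif, the binding motif of the Fos and Jun factors of stress responses. RefSeq promoters were found for 6 of the 7 members, 9 promoters in all and none for Clu. The 250 bases before each start were searched on both strands for AP-1 (TGANTCA), CRE (TGACGTCA), MCAT (CATTCC), the GC box (GGGCGG) and the TATA box (TATAAA), and matches may overlap. In the Sprr1a sequence the capitals mark 2 AP-1 matches, at 146 to 140 and 116 to 110 bases before the start, and a TATA box at 43 to 38. AP-1 occurred in 6.75% and the TATA box in 12.4% of the 32851 promoters searched. In the Tnfrsf12a sequence the capitals mark 5 GC boxes, a motif found in 32.7% of promoters and in 4 members, namely Uck2, Tnfrsf12a, Enah and Rtn4. MCAT occurred in Gdf15 and Rtn4 (12.6% of promoters) and CRE in no member (1.55%). A match describes letters and not a bound site. The sequences run 5′ to 3′ from 250 to 31 bases before the RefSeq start, on the minus strand of GRCm38.p6, chr3:92485912-92486131 for Sprr1a and chr17:23677480-23677699 for Tnfrsf12a.
Sprr1a: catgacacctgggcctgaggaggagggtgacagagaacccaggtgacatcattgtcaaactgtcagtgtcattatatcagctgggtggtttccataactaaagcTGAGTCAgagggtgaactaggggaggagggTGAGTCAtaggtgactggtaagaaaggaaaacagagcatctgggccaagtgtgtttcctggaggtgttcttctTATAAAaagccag
Tnfrsf12a: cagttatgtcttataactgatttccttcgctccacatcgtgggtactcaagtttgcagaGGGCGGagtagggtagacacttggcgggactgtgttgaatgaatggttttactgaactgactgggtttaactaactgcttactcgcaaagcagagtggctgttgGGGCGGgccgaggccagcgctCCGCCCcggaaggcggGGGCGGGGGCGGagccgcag

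Gdf15 (chromosome 8, 70629393-70632456, minus strand) followed the same order at a much lower depth. It reached 0.677 CPM (0.394 to 1.08, 17 UMIs) in sham, 4.63 CPM (3.89 to 5.46, 140 UMIs) in I/R and 1.29 CPM (0.860 to 1.87, 28 UMIs) in SBP. I/R exceeded both other sections beyond counting error, whereas the intervals of sham and SBP overlapped. The log2 ratio of I/R over sham was 2.77 (2.04 to 3.59), rank 59, and that of SBP over I/R was -1.84 (-2.48 to -1.25). In I/R, 45% of the Gdf15 UMIs came from 21 spots, 1 of which held 10. Without the 1% of spots richest in Gdf15 the log2 ratio of SBP over I/R was -3.79, and no ratio against sham remained since 100% of its sham UMIs lay in those spots. In SBP that cut removed 20 of the 24 spots with a Gdf15 UMI and 85.7% of its UMIs. The ratio of -3.79 thus rests on very few SBP UMIs and does not show a larger gap.

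Tnfrsf12a (chromosome 17, 23675445-23677468, minus strand) measured 22.1 CPM (20.3 to 24.0) in sham, 75.1 CPM (72.0 to 78.2) in I/R and 35.0 CPM (32.5 to 37.6) in SBP. The 3 intervals were separate, with SBP nearer to sham than to I/R. I/R over sham was 1.76 on the log2 scale (1.63 to 1.90), a 3.40-fold difference, and SBP over I/R was -1.10 (-1.22 to -0.98), a 2.14-fold difference.

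Uck2 (chromosome 1, 167222883-167285320, minus strand) stood at 14.2 CPM (12.8 to 15.8) in the sham, 56.5 CPM (53.9 to 59.3) in the I/R and 36.8 CPM (34.3 to 39.5) in the SBP section. In the SBP section it was above sham by 1.37 on the log2 scale (1.19 to 1.56), the only member past 2-fold in that comparison over all spots. Without the 1% of spots richest in each gene, Sprr1a was past 2-fold there as well, a cut that took a larger share of its UMIs in sham than in SBP. I/R over sham was 1.99 (1.83 to 2.16) and SBP over I/R was -0.62 (-0.74 to -0.50). Rtn4 (chromosome 11, 29692947-29744331, plus strand) showed the same order with 89.8 CPM (86.1 to 93.6) in the sham, 244 CPM (239 to 250) in the I/R and 169 CPM (163 to 174) in the SBP section. Its log2 ratios were 1.44 (1.38 to 1.51) for I/R over sham and -0.54 (-0.59 to -0.48) for SBP over I/R. Uck2 overlaps the opposite-strand genes Gm37982 and Gm2453, and Rtn4 overlaps Eml6 on the opposite strand, so their counts are uncertain where counting could split such reads.

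Enah and Clu had the smallest log2 ratios in the comparisons with sham. Enah (chromosome 1, 181896384-182019990, minus strand) was at 41.9 CPM (39.4 to 44.5) in the sham, 70.0 CPM (67.0 to 73.0) in the I/R and 54.6 CPM (51.5 to 57.8) in the SBP section, with a log2 ratio of 0.74 (0.63 to 0.85) for I/R over sham and -0.36 (-0.46 to -0.26) for SBP over I/R. It overlaps 4 gene models of the unconfirmed type TEC on the same strand, which could take part of its reads if counting included them. Clu (chromosome 14, 65968483-65981547, plus strand) was at 759 CPM (748 to 770) in the sham, 1081 CPM (1069 to 1093) in the I/R and 728 CPM (717 to 739) in the SBP section. Its log2 ratio was 0.51 (0.48 to 0.54) for I/R over sham, rank 3391, and -0.57 (-0.60 to -0.54) for SBP over I/R. For SBP over sham it was -0.06 (-0.09 to -0.03), and this sign turned when every spot had equal weight (0.030). Of the summed UMIs of the 7 genes, Clu gave 68.4% under I/R, 70.5% under SBP and 81.3% in the sham heart, so any sum over the 7 genes is mostly Clu.

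**Figure D1:**
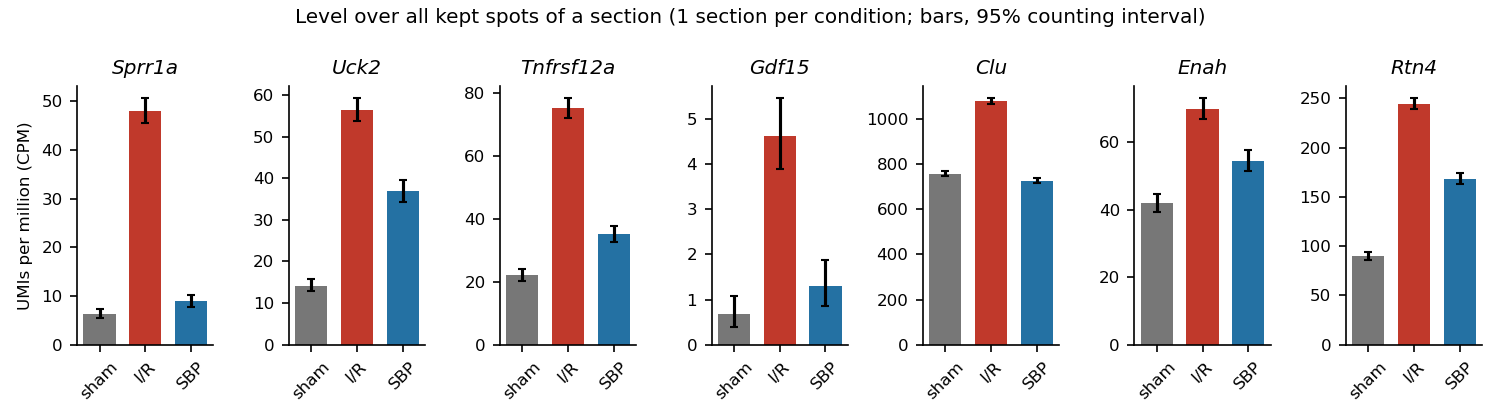
Level of each of the 7 genes (y axis, CPM, own scale in each panel) over all kept spots of the sham, I/R and SBP section. Bars are levels of 1 section and whiskers are exact Poisson 95% intervals, and in every panel the I/R bar is the tallest, from 4.63 CPM for Gdf15 to 1081 CPM for Clu.

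Counted over the list, 5 of the 7 genes were at least 2-fold higher in I/R than in sham (all but Clu and Enah), against 8.38% of the 12231 genes compared. Their median log2 ratio was 1.76, beside 0.24 over all genes. In SBP against I/R, 3 of the 7 were at least 2-fold lower (Sprr1a, Gdf15 and Tnfrsf12a), against 4.53% of 12151 genes, with a median of -0.62 beside -0.17 over all genes. Tnfrsf12a was no longer past 2-fold under other normalization factors, as given at the end. In SBP against sham, 1 of the 6 members that reached 50 UMIs, which leaves out Gdf15, was at least 2-fold higher (1.48% of all genes), with a median of 0.58 beside 0.08. These 3 comparisons share their sections and are not independent of each other. The genes were chosen for concentration, known or seen in these data, in Ankrd1-high spots. Such spots were 5.01% of the sham, 23.0% of the I/R and 16.6% of the SBP section. The counts may therefore follow in part from that choice and are given as a description.

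The share of spots with a UMI was compared at an equal depth of 6500 UMIs, drawn at random from every spot. Shallower spots, 132 of sham, 202 of I/R and 213 of SBP, could not be used. Sprr1a was then detected in 2.28% of sham, 16.3% of I/R and 3.72% of SBP spots. Before thinning these shares were 3.49%, 26.6% and 6.94%. Rtn4 was detected in 35.9%, 57.4% and 49.9% of thinned spots, and Clu in 95.4%, 98% and 95.6%, so that Clu was found in nearly every spot and Sprr1a in a minority of spots of each section. At least 5 of the 7 genes were found together in 0.666% of sham, 12.1% of I/R and 3.21% of SBP spots. All 7 genes met in 6 I/R spots and in 0 of 2102 sham and 0 of 1747 SBP spots.

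**Figure D2:**
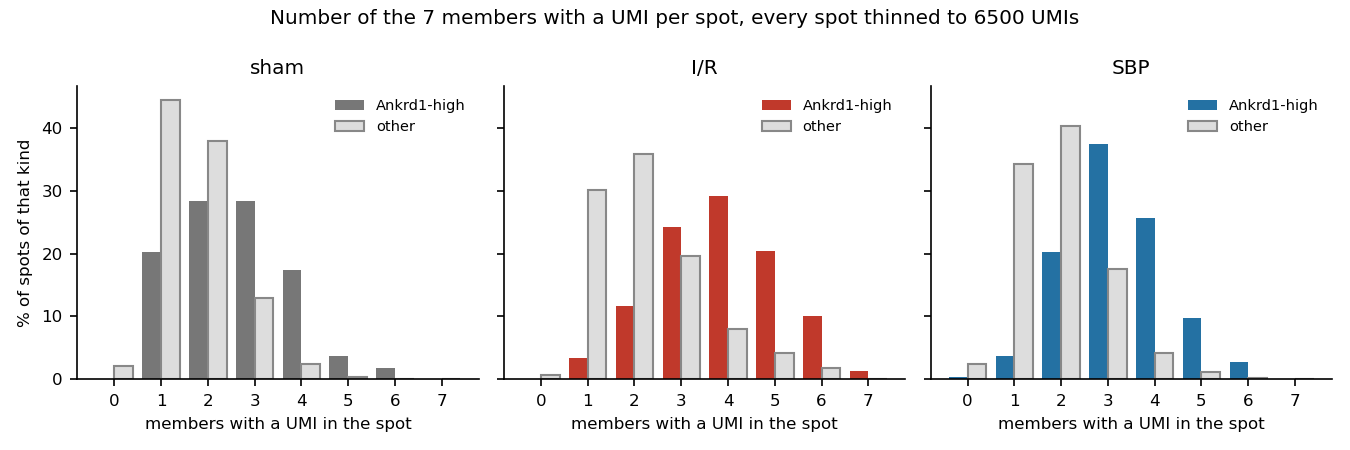
Share of spots (y axis, % of spots of that kind) by the number of the 7 genes with a UMI (x axis), in Ankrd1-high and other spots of each section, every spot thinned to 6500 UMIs. At least 5 genes were found in 31.8% of the Ankrd1-high spots of I/R, 12.5% of those of SBP and 5.50% of those of sham, and in 5.93%, 1.31% and 0.401% of the other spots.

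Within each section, the level of the genes in Ankrd1-high spots exceeded that elsewhere, as the way they were chosen implies. In I/R, Sprr1a measured 98 CPM in Ankrd1-high and 29.5 CPM in other spots, and these spots held 55.1% of its UMIs. Uck2 measured 118 and 33.7 CPM (56.5% of its UMIs), Tnfrsf12a 141 and 50.6 CPM (50.8%) and Rtn4 456 and 166 CPM (50.5%). Enah measured 126 and 49.1 CPM (48.8%), Clu 1888 and 782 CPM (47.2%) and Gdf15 8.20 and 3.31 CPM (47.9%). Among genes with at least 200 UMIs in the section, 6 of 6 members were past 2-fold in I/R (1.33% of 8072 genes), 5 of 5 in SBP (1.6% of 6364 genes) and 4 of 5 in sham (4.5% of 6660 genes). Gdf15 was below that minimum in every section and Sprr1a in sham and SBP. Their log2 ratios in SBP were 1.33 (0.05 to 2.52, from 10 and 18 UMIs) for Gdf15 and 1.81 (1.38 to 2.24) for Sprr1a. Without the 1% of spots richest in each gene, Clu, Enah and Gdf15 were no longer past 2-fold in SBP.

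In SBP the Ankrd1-high spots held 47.9% of the Uck2 UMIs, 44.0% of those of Tnfrsf12a, 43.8% of those of Sprr1a, 42.2% of those of Rtn4, and 31.5% to 35.7% of those of Clu, Enah and Gdf15. In sham they held 40.3% of the Sprr1a UMIs but 9.78% to 22.3% of those of the other genes. Enah in sham was 55.8 CPM in Ankrd1-high and 40.8 CPM in other spots, a log2 ratio of 0.45 (0.14 to 0.75), and without the 1% of spots richest in Enah it was 0.10. Gdf15 in sham rested on 2 and 15 UMIs, with an interval from -2.42 to 2.85.

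The threshold cut through a gradual change for most of the genes. In I/R, the 186 spots just below it (21.6 to 27.0 Ankrd1 UMIs per 10000) and the 191 just above it (27.0 to 33.7) held Sprr1a at 88.0 and 82.3 CPM, Tnfrsf12a at 115 and 110 CPM, Rtn4 at 398 and 408 CPM and Enah at 88.0 and 105 CPM. Uck2 was 70.6 and 93.4 CPM, Clu 1448 and 1709 CPM, and Gdf15 15.4 and 6.39 CPM. Over 5 bins of Ankrd1 in I/R all 7 genes were higher in each successive bin. Sprr1a was 5.14, 24.7, 48.4, 84.3 and 121 CPM from the lowest to the highest bin, and Uck2 was 14, 30.4, 54.3, 90.9 and 142 CPM. In SBP, Sprr1a was 0.833, 2.95, 11.6, 19.2 and 31.2 CPM and Uck2 11.2, 19.4, 37.2, 75.7 and 107 CPM. Both genes were lower in SBP than in I/R in each bin, with separate intervals in all 5 bins for Sprr1a and in all but the lowest bin for Uck2.

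**Figure D3:**
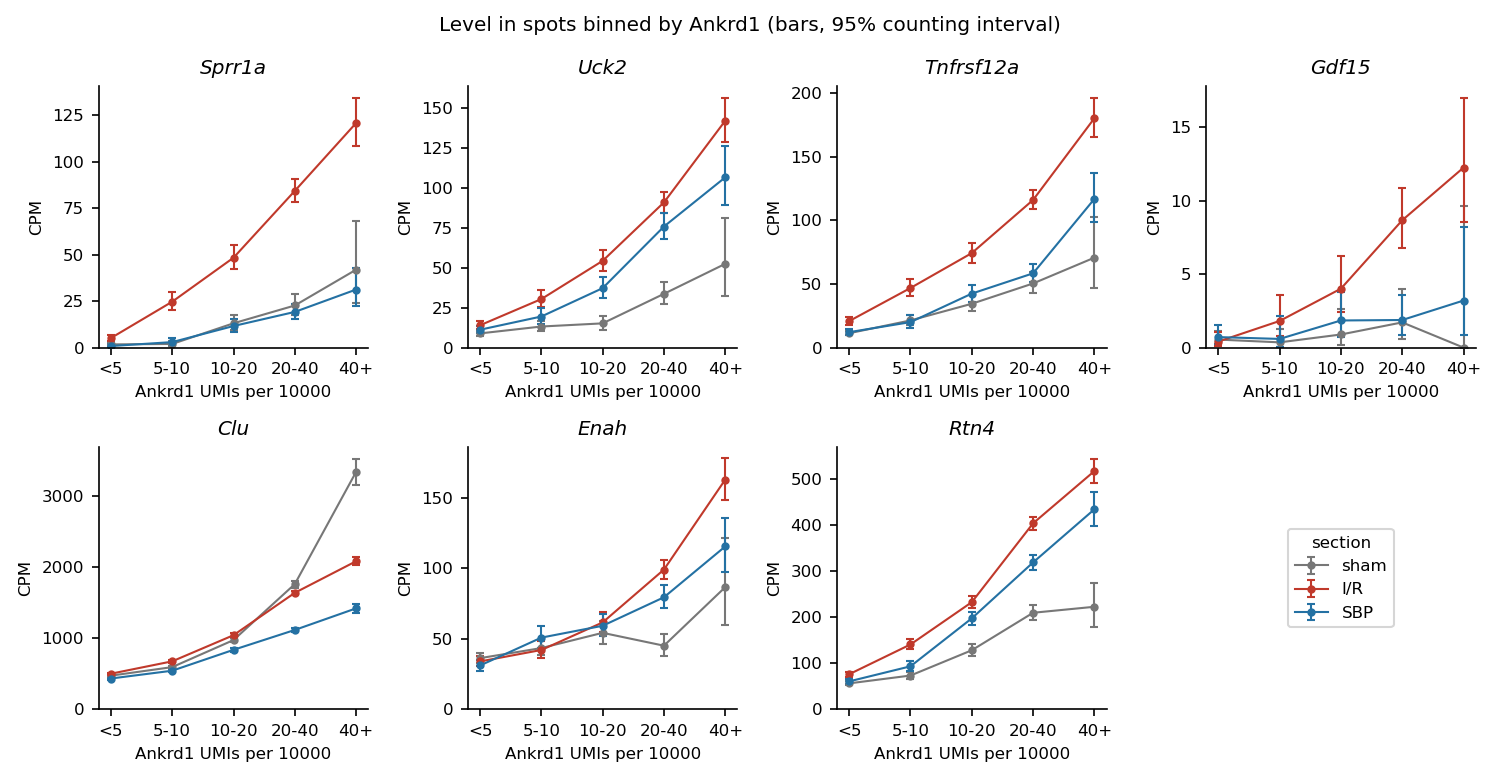
Level (y axis, CPM, own scale per gene) of each gene in spots binned by Ankrd1 UMIs per 10000 (x axis, 5 bins), 1 line per section, with exact Poisson 95% intervals. In the highest bin the I/R line of Sprr1a reaches 121 CPM and the SBP line 31.2 CPM. For Clu the sham line is highest in that bin, at 3344 CPM from 17 spots, while in the lowest bin it is 471 CPM against 499 CPM in I/R.

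Between sections, the comparison of Ankrd1-high spots with each other holds Ankrd1 nearly level, since sham had 3624 CPM, I/R 3869 CPM and SBP 3719 CPM of it. In these spots 6 of the 7 genes were at least 2-fold higher in I/R than in sham (5.32% of 9292 genes), with a median of 1.27 beside 0.13 over all genes. The mix of these spots also differed between the sections, as given by class below. Fewer of the 7 genes passed 2-fold within the classes of these spots. Those counts leave out Gdf15 and have no share over all genes beside them. The part of the mix in the difference was not tested. Uck2 was 39.6 CPM in sham and 118 CPM in I/R, a log2 ratio of 1.58 (1.23 to 1.94). Sprr1a was 34.7 and 98 CPM, a log2 ratio of 1.5 (1.13 to 1.89). Tnfrsf12a, Enah and Rtn4 had log2 ratios of 1.27, 1.18 and 1.16, and Gdf15 had 2.92 (1.01 to 5.99) from 67 and 2 UMIs. Clu was the exception and was lower in I/R, at 1888 CPM against 2304 CPM in sham, a log2 ratio of -0.29 (-0.34 to -0.24).

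In the same spots, SBP differed from I/R most in Sprr1a, at 21.4 CPM against 98 CPM, a log2 ratio of -2.19 (-2.54 to -1.87). Gdf15 was at -1.68 (-2.81 to -0.72) from 10 and 67 UMIs, and these were the 2 members past 2-fold (2.96% of 9670 genes). Tnfrsf12a was at -0.73 and Clu at -0.58. Enah, Uck2 and Rtn4 differed by less, at -0.40 (-0.57 to -0.23), -0.28 (-0.45 to -0.11) and -0.22 (-0.30 to -0.13), where the median of all genes was -0.16. Against sham, SBP was higher in Uck2 by 1.3 (0.94 to 1.68) and lower in Clu, at -0.87 (-0.92 to -0.81). For Sprr1a it was -0.69 (-1.18 to -0.20), a sign that turned to 0.0092 at the sham 99th percentile of Ankrd1.

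Ankrd1-high spots differed from other spots in more than Ankrd1. In I/R their median depth was 17348 against 14103 UMIs, and summed cardiomyocyte markers were 39586 CPM in them against 53875 CPM elsewhere. The spots were therefore also split by 18 injury genes, none of them a member, such as Timp1, Spp1, Lgals3 and the macrophage gene Cd68, at the sham 95th percentile of their sum (19.3 per 10000 UMIs). This gave 4 classes, with Ankrd1 only, injury genes only, both or neither above its threshold. In I/R they held 157, 459, 322 and 1144 spots, in SBP 185, 221, 141 and 1413, and in sham 82, 82, 30 and 2040.

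Sprr1a was higher in injury-only than in Ankrd1-only spots of all 3 sections. In I/R it was 5.04 CPM in spots with neither, 24.9 CPM with Ankrd1 only, 122 CPM with injury genes only and 140 CPM with both. Gdf15 was 0.630, 1.34, 13.4 and 12.1 CPM in the same order. Injury-only over Ankrd1-only spots gave log2 ratios of 2.30 (1.95 to 2.67) for Sprr1a and 3.32 (1.89 to 5.24, 62 and 4 UMIs) for Gdf15. Of the 6 members with at least 200 UMIs in I/R, which leaves out Gdf15, only Sprr1a was past 2-fold, where 32.7% of all genes were past it and the median of all genes was 0.69, so the members as a list were not above the background. Gdf15 had too few UMIs in the other sections to place it, with 1.03 (-1.34 to 3.71) in SBP, 1.60 (-1.20 to 5.07) in sham and no UMI in the 30 sham spots with both. Sprr1a had the same order in sham, at 1.43, 5.81, 69.4 and 120 CPM, and in SBP it was 2.21, 12.1, 38.5 and 34.9 CPM.

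Clu had the opposite order of these 2 kinds of spots. In I/R it was 673 CPM with neither, 1809 CPM with Ankrd1 only, 1195 CPM with injury genes only and 1934 CPM with both. In sham it was 611, 2317, 1261 and 2264 CPM, and in SBP 561, 1226, 1010 and 1320 CPM. In I/R its log2 ratio of injury-only spots to spots with neither was 0.83 (0.78 to 0.87), below the median of all genes, 1.03. Injury-only over Ankrd1-only spots gave -0.60 (-0.65 to -0.54) in I/R, -0.28 (-0.36 to -0.20) in SBP and, in sham, -0.88 (-0.98 to -0.78), so the order was the same in all 3 sections.

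In I/R, Uck2, Tnfrsf12a, Enah and Rtn4 were higher in both kinds of spots than in spots with neither. The median log2 ratio of all genes over spots with neither was itself 0.31 in Ankrd1-only and 1.03 in injury-only spots. Enah in injury-only spots, at 1.11 (0.93 to 1.29), was near that median. Uck2 (2.41), Tnfrsf12a (2.15) and Rtn4 (2.53) were above it. Uck2 was 17.7, 74.0, 94.1 and 144 CPM from neither through Ankrd1 only and injury only to both. Enah was 39.5, 91.4, 85.2 and 146 CPM. Each was highest where both thresholds were passed, as were Tnfrsf12a (29.4, 91.4, 131 and 170 CPM) and Rtn4 (83.0, 262, 479 and 568 CPM). For Uck2 the log2 ratio of injury-only over Ankrd1-only spots, 0.35 (0.11 to 0.59), changed sign to -0.11 when mitochondrial UMIs were left out of the denominator. Mitochondrial genes took 25.9% of UMIs in injury-only spots of I/R against 45.9% in Ankrd1-only spots, and their part in these ratios beyond that change of denominator was not tested.

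**Figure D4:**
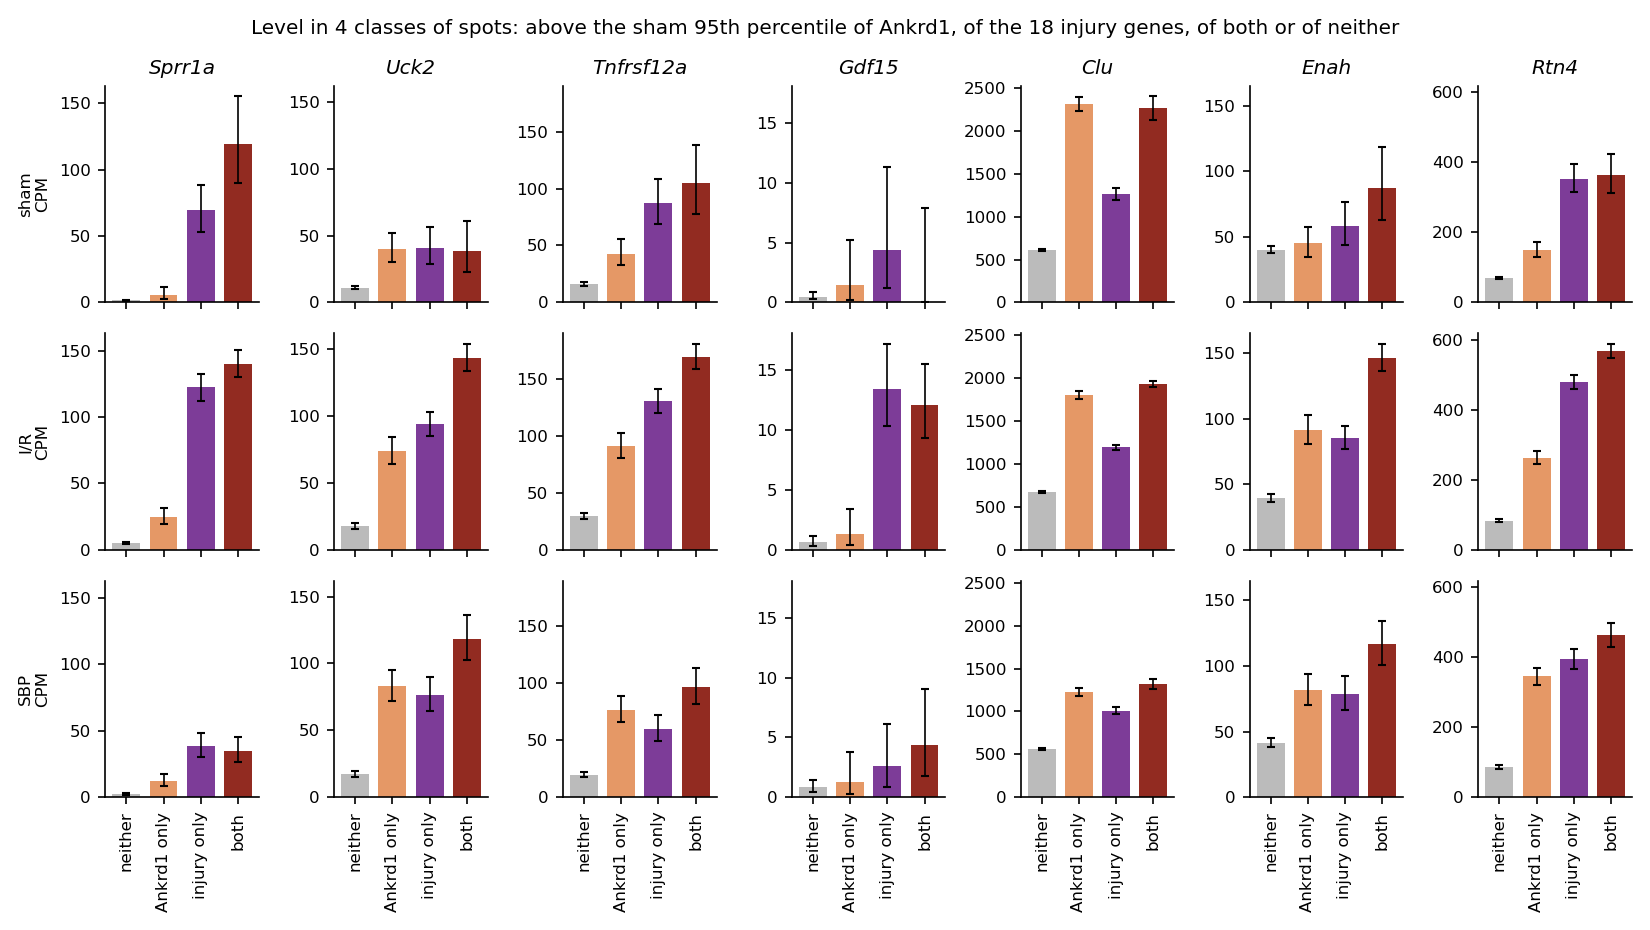
Level (y axis, CPM, same scale for a gene in all 3 sections) of each gene in 4 classes of spots (x axis) in the sham, I/R and SBP section, as bars with exact Poisson 95% intervals. In I/R the Sprr1a bar is 24.9 CPM for Ankrd1-only and 122 CPM for injury-only spots, while the Clu bars are 1809 and 1195 CPM.

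Compared class by class, the gap between SBP and I/R in Sprr1a was present in all 4 classes. The log2 ratio was -1.19 in spots with neither, -1.04 with Ankrd1 only, -1.67 with injury genes only and -2.0 with both, the last from 34.9 CPM in SBP and 140 CPM in I/R. Over all genes, 0.338% with neither, 0.924% with Ankrd1 only, 5.97% with injury genes only and 3.95% with both were 2-fold lower. Uck2 gave -0.05, 0.16, -0.30 and -0.28 and Rtn4 0.05, 0.40, -0.28 and -0.30 in the same order, so that neither was 2-fold lower in SBP in any class. Tnfrsf12a was past 2-fold in injury-only spots, at -1.12 (-1.42 to -0.83), where it measured 60.1 CPM in SBP and 131 CPM in I/R. Gdf15 was past 2-fold in injury-only spots, at -2.35 (-4.02 to -1.05) from 5 and 62 UMIs, and with both, at -1.47 (-2.85 to -0.35) from 7 and 63 UMIs, and had too few UMIs to compare in the other 2 classes. The SBP section also had fewer such spots, 11.3% against 22.0% in I/R, and their part in the whole-section ratios was not tested.

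Between I/R and sham, the classes differed for Sprr1a. In spots with neither threshold passed it was 5.04 CPM in I/R and 1.43 CPM in sham, a log2 ratio of 1.82 that ranked 11 of 11271 genes. It was the only one of 6 members with at least 50 UMIs past 2-fold there, against 0.373% of all genes. In spots with both, the 2 sections differed little, at 140 CPM (130 to 150) in I/R and 120 CPM (90.3 to 155) in sham, a log2 ratio of 0.23 with an interval from -0.17 to 0.65. Among the classes, Uck2 had its largest ratio in those spots, 1.90 (1.23 to 2.66), where it measured 144 CPM in I/R and 38.4 CPM in sham. Sprr1a in SBP, at 34.9 CPM, was below sham in the same spots, with a log2 ratio of -1.78 (-2.34 to -1.21) from 56 UMIs in each section. The 30 sham spots with both were few and gave 56 Sprr1a and 18 Uck2 UMIs. Of the Ankrd1-high spots, 322 of 479 in I/R and 30 of 112 in sham also passed the injury threshold. In Ankrd1-only spots 3 of 6 members were at least 2-fold higher in I/R than in sham, with a median log2 ratio of 0.96. In spots with both, 1 of the 6 members with a ratio was, with a median of 0.67 over them. Gdf15 had 63 UMIs there in I/R and no UMI in sham, so it has no ratio and is not in that count. The share over all genes is not given for these classes, so these counts are not set against a background.

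**Figure D5:**
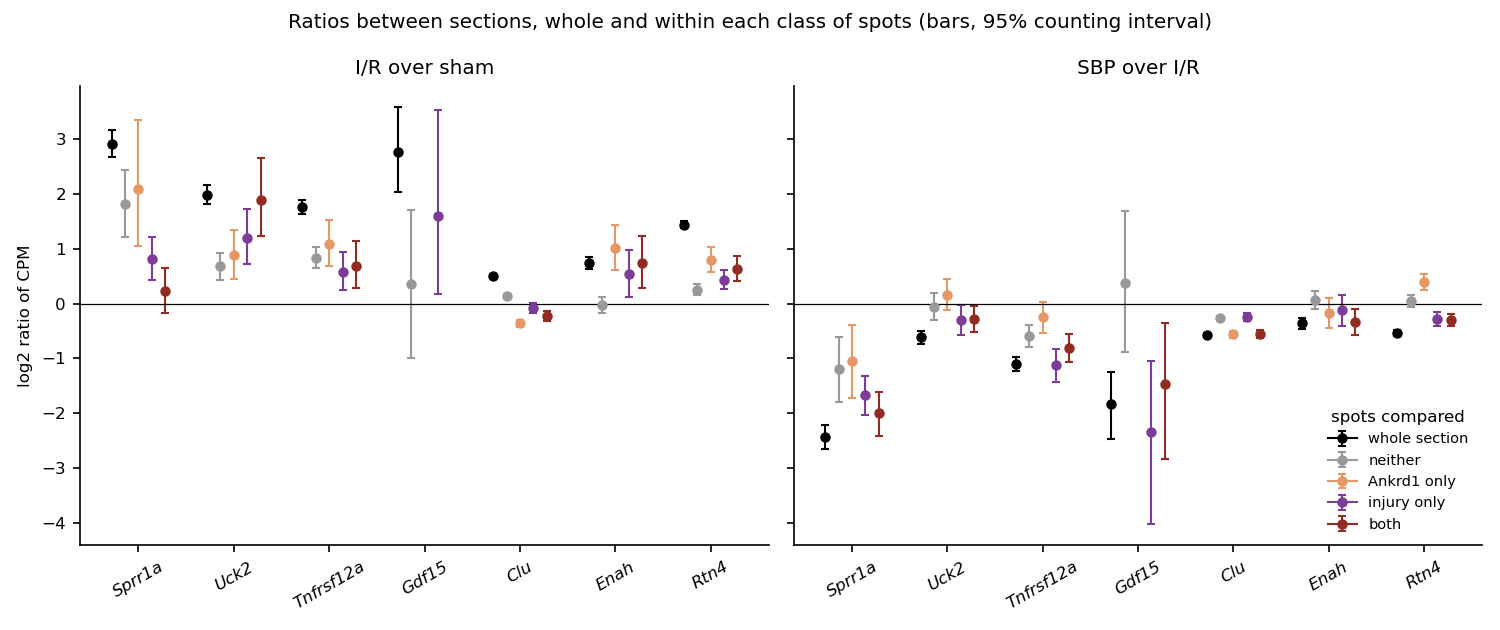
Log2 ratio of CPM between sections (y axis) for each gene, over the whole section and within each class of spots, with I/R over sham on the left and SBP over I/R on the right and 95% counting intervals. Points with fewer than 4 UMIs in either section are left out, and Sprr1a in the right panel lies below 0 in every class, from -1.04 to -2.0.

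Markers of other cell types also differed between the classes. Cd68 and Lyz2 of the macrophage list and S100a8 and S100a9 of the neutrophil list are among the 18 injury genes. Their levels in spots that passed the injury threshold therefore follow in part from how the classes were cut. In I/R, macrophage and monocyte markers summed to 514 CPM with neither, 616 CPM with Ankrd1 only, 4132 CPM with injury genes only and 1817 CPM with both, and neutrophil markers to 75.4, 109, 1059 and 430 CPM. Cardiomyocyte markers were lowest in injury-only spots, at 26560 CPM. In the 10% of I/R spots richest in macrophage markers, Sprr1a was 174 CPM against 38.8 CPM in the rest and Gdf15 16.5 against 3.76 CPM, while Clu was 1082 against 1081 CPM. In the 10% richest in cardiomyocyte markers, Sprr1a was 5.08 against 52.0 CPM, Uck2 12.5 against 60.6 CPM, Rtn4 68.4 against 261 CPM and Clu 586 against 1127 CPM. All 7 were lower in these spots than in the rest, and these data do not place the genes in cardiomyocytes or in any other cell type. The part of the marker levels in the results was not tested.

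Over 1880 I/R spots thinned to 6500 UMIs, Spearman correlations with Ankrd1 were 0.68 for Clu, 0.52 for Rtn4, 0.40 for Tnfrsf12a, 0.37 for Uck2, 0.34 for Sprr1a, 0.28 for Enah and 0.14 for Gdf15. With the injury genes Rtn4 reached 0.61, Clu and Sprr1a 0.46 each, Tnfrsf12a 0.45, Uck2 0.39, Enah 0.23 and Gdf15 0.18. With the cardiomyocyte markers Rtn4 reached -0.61. The spots share 1 library and the values for sparse genes such as Gdf15 are weak and no finding. The genes most like the sum of the 7 over these spots were Ankrd1 (0.74), the small heat shock protein gene Cryab (0.67), the ribosomal genes Rplp1 (0.65) and Rpsa (0.64) and the desmin gene Des (0.64), beside a median of 0.09 over 4610 genes. Over 1747 SBP spots they were Ankrd1 (0.64), the actin gene Actb (0.52), Cryab (0.51), the protease inhibitor gene Timp1 (0.51) and Rplp1 (0.49), beside a median of 0.05 over 3206 genes. The first place of Ankrd1, and the correlations of the members with it, follow in part from how the members were chosen and support nothing. As the sum is mostly Clu, the genes named are largely genes that vary with Clu.

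The partners of each gene behaved less uniformly. For the counts in each list below, 8.38% of all genes were at least 2-fold higher in I/R than in sham. In SBP against I/R, 4.53% of all genes were at least 2-fold lower. The lists are short, some hold a member itself, and no list was tested against these shares. Of the TWEAK pathway, 3 of 13 genes were at least 2-fold higher in I/R than in sham, namely Tnfrsf12a itself, Traf1 (1.43, from 55 and 17 UMIs) and Map3k14 (1.01). Tnfsf12, the ligand TWEAK, was at 13.3 CPM for sham, 19.0 CPM for I/R and 17.2 CPM for SBP, a log2 ratio of 0.51 (0.32 to 0.71) for I/R over sham. Receptor and ligand thus differed in size, with the receptor at 1.76. Only Tnfrsf12a of this list was 2-fold lower in SBP than in I/R.

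For Gdf15, its brain receptor Gfral had no UMI in any section. Of 10 counted genes of the list, Cdkn1a (1.74), Atf3 (1.59) and Egr1 (1.12), stress-induced genes, were past 2-fold in I/R over sham with Gdf15, and Atf3 (-1.18) and Egr1 (-1.09) were also 2-fold lower in SBP. Ret, the coreceptor, was at -0.41 (-0.74 to -0.08) in I/R over sham.

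Among pyrimidine genes, 4 of 15 were past 2-fold in I/R over sham: Uck2, the thymidine kinase gene Tk1 (1.68), the cytidine deaminase gene Cda (1.48) and Umps (1.10). The related kinases Uck1 (0.51) and Uckl1 (0.31) were not. In SBP over I/R, Tk1 (-2.37) and Cda (-1.32, from 24 and 84 UMIs) were 2-fold lower and Uck2 was not.

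The reticulons and their receptors went different ways. Besides Rtn4, only the immune receptor gene Pirb (1.40) of 9 counted genes was past 2-fold in I/R over sham. Rtn2 was lower in I/R, at 46.7 CPM against 67.1 CPM in sham (-0.52, -0.62 to -0.42), and at 70.1 CPM in SBP it was near sham. Rtn3 was at 0.45, and the Nogo receptor gene Rtn4r at -0.86 (-1.29 to -0.45) and, in SBP over I/R, at -1.19 from 25 and 80 UMIs.

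Of the Ena/VASP list, 1 of 10 genes was past 2-fold in I/R over sham, the focal adhesion gene Tes (1.14), and none in SBP over I/R. That count is near the share of all genes (8.38%). The Enah relatives Vasp and Evl were at 0.76 (0.62 to 0.90) and 0.36 (0.18 to 0.54), beside 0.74 for Enah. Of the small proline-rich list, 13 of 15 genes had too few UMIs to compare, and Sprr2b had 11 UMIs in I/R and 0 in the other sections. Tgm2, a transglutaminase gene on the same list, was at 0.80 in I/R over sham and -0.07 in SBP over I/R.

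The cytokines that signal through gp130 induce Sprr1a in cultured cardiomyocytes. Of 12 counted genes for these cytokines, their receptors and signal proteins, 5 were past 2-fold in I/R over sham, the cytokine genes Il6, Il11, Osm and Clcf1 and the feedback inhibitor gene Socs3 (1.74), and the 4 cytokine genes were 2-fold lower in SBP. The 2 with the largest ratios in I/R over sham were Il11 (4.00) and Il6 (3.05), and in SBP Il11 had 2 UMIs against 77 in I/R. Of 10 counted genes around clusterin, 3 were past 2-fold in I/R over sham, the receptor genes Lrp8 (2.65) and Trem2 (1.34) and the chaperone haptoglobin Hp (2.59), and Trem2 was 2-fold lower in SBP (-1.08). Of a list of 18 genes named for the border zone, none of them a member, 8 were past 2-fold in I/R over sham. Ankrd2 (3.19) and Cd44 (2.09) were at the top. In SBP 4 of the 18 were 2-fold lower than in I/R, with Ankrd2 (-1.76) and Nppb (-1.35) at the bottom. The name is that of the list, and spot positions were not used to check it. The injury genes, all 18 of which were past 2-fold in I/R over sham, were 2-fold lower in SBP for 13 of 18. That list, like the others, was chosen with earlier results of these data known, so its counts may follow in part from the choice.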

How the data were processed

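Unnormalized counts of UMIs per gene and spot were deposited by the authors, who made them with Space Ranger (version 1.3.0 and the build mm10 in the submitters' processing notes), restricted to spots over tissue. Of 32285 gene identifiers, 32158 were in GENCODE M21 (GRCm38), from which gene positions were taken, and promoter sequences came from RefSeq (GRCm38.p6). The members, the gene lists and the tests were chosen with earlier results of these data known. Named genes were the 7 members, the 5 genes most correlated with their sum in I/R and in SBP, and from each list the genes with the 2 largest ratios or all direct partners of a member.

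A spot was kept from 200 detected genes on, which dropped 3 sham, 1 I/R and 2 SBP spots. The level in CPM was the UMI sum of a gene over spots, taken per 1000000 UMIs of the same spots. Comparisons of sections used genes that reached 50 UMIs over both, and ratios between spots genes with at least 200 UMIs in the section. Intervals were exact Poisson (CPM), Clopper-Pearson (shares) or exact conditional binomial (ratios). The sham section held 25118258 UMIs, I/R held 30238530 and SBP held 21631280, at which a member rested on 17 to 32682 UMIs in a section. Spots were thinned to 6500 UMIs with a fixed seed. Spots were not clustered, named by cell type or checked for doublets. The ratio and interval functions were checked on Poisson counts simulated from the section sums, with no spread between spots or animals. That check covers counting error only. Alternatives were no mitochondrial UMIs, TMM factors (edgeR 4.0.16), median-of-ratios factors, equal weight of spots, other spot filters, other Ankrd1 thresholds and leaving out the 1% of spots richest in a gene. The tools were R 4.3.3, matplotlib 3.10.9, pandas 2.3.3, scipy 1.17.1, numpy 2.4.6 and Python 3.11.15.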

Additional observations from a re-analysis of the deposited data

How the results depend on the processing

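No paired analysis was possible because only 1 section stands for each condition. The counts of members past 2-fold in I/R over sham (5) and in SBP over I/R (3) stayed within 1.5 times under all 7 alternatives. That rule does not require the count to be unchanged. The median of the members in I/R over sham, 1.76, was 1.53 with TMM factors, 1.53 with median-of-ratios factors and 1.91 with equal weight of spots. In SBP over I/R the median of -0.62 was -0.46 with TMM factors and -0.46 with median-of-ratios factors. Such factors shift the ratios of all members by the same amount. By that shift Tnfrsf12a, the closest to the cut of the members 2-fold lower in SBP, was no longer past 2-fold with either. In SBP over sham the count of 1 was 2 with equal weight of spots and 2 without the 1% of spots richest in each gene, and the median of all 7, 0.66, was 0.88 and 0.84. Without those spots the median log2 ratio, over all 7 members, of Ankrd1-high to other spots fell to 1.12 in sham (1.61 before), 1.36 in I/R (1.46 before) and 1.58 in SBP (1.72 before), where the count of 7 was 4. In I/R this median was also 1.33 without mitochondrial UMIs, 1.74 at the sham 90th percentile and 1.53 with thinned spots, and in SBP 1.53 at the sham 99th percentile and 1.51 at the section's own 95th. The share of Ankrd1-high spots at the sham 90th and 99th percentile was 34.7% and 8.60% in I/R (23.0% before) and 26.0% and 5.82% in SBP (16.6% before). For the causes of these moves no test was run.

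Of 510 values of single members under an alternative, 317 were classed as the same, 188 as moved and 5 as reversed. A ratio was classed as reversed only if its sign changed and its main interval left out 0. Sign changes of ratios whose interval held 0 were therefore not counted, and shares of spots with a UMI have no sign. Many single-member values thus depended on the processing in size. The 5 reversed values were as follows. Clu in SBP over sham (-0.06) was 0.030 with equal weight of spots and 0.0048 without the 1% of spots richest in it. Sprr1a in SBP over sham within Ankrd1-high spots (-0.69) was 0.0092 at the sham 99th percentile. For injury-only over Ankrd1-only spots without mitochondrial UMIs, Uck2 in I/R was -0.11 (0.35 before) and Rtn4 in SBP was -0.070 (0.20 before). Gdf15 in sham gave no value without the 1% of spots richest in it. The alternatives for SBP over sham, for ratios within Ankrd1-high spots and for the 4 classes were chosen after seeing the data. Depth limits Gdf15 most, with 17 UMIs in sham and 28 in SBP.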
